A study of Mus musculus with 3 samples.

Results

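Urothelial cells of the mouse bladder that held the most transcripts of Fabp4 and Clu were described in 3 libraries of droplet-based 3' single-cell RNA sequencing. The cells were chosen by their measured counts, not by a sort or a stain. Cells with at least 500 detected genes, at most 20% mitochondrial unique molecular identifiers (UMIs), at least 10000 UMIs and at least 0.2% of UMIs from the uroplakin genes Upk1a, Upk1b, Upk2 and Upk3a were ranked within each library by the summed share of Fabp4 and Clu. The top 10% of each library, here called the Fabp4 and Clu high cells or members, numbered 1272 of 12728 ranked cells and of 25784 deposited barcodes. These were 288 wild-type, 467 Lpar6 knockout and 517 Cab39l knockout cells, and the other 2599, 4203 and 4654 ranked cells of the same libraries are called the rest. Because Fabp4 and Clu made the choice, their own levels are a description, and every fold between members and rest is a description too, since the same cells were ranked and measured.

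The study asked how loss of Lpar6 or of Cab39l affects the basal to luminal differentiation program of the urothelium. The product of Lpar6 is a surface receptor that binds lysophosphatidic acid, and that of Cab39l is an adaptor which belongs to the kinase complex of LKB1. There was 1 library for wild-type mice, 1 for Lpar6 knockout mice and 1 for Cab39l knockout mice, and each was a single pool of urothelial cells from 15 mice. The labels give no strain, sex or age, and do not state the alleles, the Cre or the cells in which the genes were lost. Cells were released by trypsin in the bladder, strained, and centrifuged on Ficoll to remove red blood cells. With 1 pool for each genotype, animals cannot be told apart, no difference between genotypes has a replicate check, and no test was made. Where 3 values follow each other they are those of the wild type, of the Lpar6 knockout and of the Cab39l knockout, in this order.

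The urothelium is layered, with basal cells that carry Krt5, Krt15 and Trp63 below, intermediate cells above them and umbrella cells at the lumen. Luminal cells build a plaque of uroplakins on their apical membrane, and umbrella cells also carry Krt20. Fabp4 is a small cytosolic carrier of fatty acids, best known from adipocytes, macrophages and capillary endothelium and as a target gene of the nuclear receptor PPARγ, which also acts in luminal urothelium. Clu encodes clusterin, a secreted chaperone that binds misfolded proteins and restrains complement. Psca, Sprr1a and Tspan6 were named beside them as markers of these cells. Psca is a lipid-anchored surface protein of the Ly6 family, Sprr1a a small proline-rich protein that is cross-linked into cell envelopes, and Tspan6 a tetraspanin membrane protein.

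Members were deeper than the rest in the wild type and the Cab39l knockout. Their median depths were 26931, 26594 and 34201 UMIs, against 23365, 27403 and 30631 in the rest. At an equal depth of 10000 UMIs the median number of detected genes was 2891.5, 2577 and 2552 in members and 2897, 2517 and 2515 in the rest. The median share of mitochondrial UMIs was 9.50, 6.52 and 6.30% against 8.59, 6.22 and 6.10%. Doublets were scored and not removed. The 6% of cells with the highest doublet score included 4.17, 6.21 and 6.19% of members and 8.77, 9.09 and 10.5% of the rest. Of the cell barcodes, 16 to 19 were shared by each pair of libraries, and 0 were shared between members. Lpar6 had 101 UMIs in wild-type members, 0 in Lpar6 knockout members and 224 in Cab39l knockout members. Cab39l was at 31.7 CPM (the UMIs of a gene over all UMIs of the group, scaled to 1000000) in Cab39l knockout members, below 119.9 CPM in wild-type and 95.9 CPM in Lpar6 knockout members, and was not at 0.

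The promoters of 3 genes that were higher in the members are shown first, because these genes share a short motif. Of the 29 higher genes named or counted below (haemoglobin genes left out), 19 had an entry in the RefSeq promoter table of build GRCm38.p6, which spans 250 bases before to 50 bases after each start. The motif TGANTCA, which reads the same on both strands and is the usual core recognised by AP-1 factors, was in 4 of these 19 promoters (21.1%), those of Sprr1a, Sprr2f, Fam25c and Adgrf4. It was in 2565 of all 32851 promoters of the table (7.81%). Capitals mark the motif. A match describes these letters and is no evidence that a factor binds there.
Sprr1a, chr3:92485832-92486131, minus strand: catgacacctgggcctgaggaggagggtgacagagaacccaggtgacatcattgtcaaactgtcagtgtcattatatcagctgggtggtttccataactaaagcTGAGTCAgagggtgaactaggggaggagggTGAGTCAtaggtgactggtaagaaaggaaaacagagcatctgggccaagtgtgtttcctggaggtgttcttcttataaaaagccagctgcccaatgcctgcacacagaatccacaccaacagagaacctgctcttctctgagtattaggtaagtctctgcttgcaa
Sprr2f, chr3:92364937-92365236, plus strand: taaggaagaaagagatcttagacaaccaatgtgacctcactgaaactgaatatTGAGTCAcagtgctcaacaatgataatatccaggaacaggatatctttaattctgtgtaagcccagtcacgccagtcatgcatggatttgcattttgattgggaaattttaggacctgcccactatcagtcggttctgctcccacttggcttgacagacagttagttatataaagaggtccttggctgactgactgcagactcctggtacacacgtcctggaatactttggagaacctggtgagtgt
Fam25c, chr14:34355344-34355643, minus strand: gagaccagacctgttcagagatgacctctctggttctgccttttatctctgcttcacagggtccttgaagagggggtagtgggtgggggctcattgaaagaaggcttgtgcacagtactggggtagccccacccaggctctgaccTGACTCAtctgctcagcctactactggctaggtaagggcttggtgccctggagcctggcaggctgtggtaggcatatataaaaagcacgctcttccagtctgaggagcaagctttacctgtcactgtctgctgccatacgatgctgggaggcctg
The letters TATAAA were in 6 of the 19 promoters (31.6%), those of Sprr1a, Sprr2f, Fam25c, Il18, Krt20 and Tubb2a, and in 13.6% of all promoters. Sprr1a and Sprr2f lie on chromosome 3, the chromosome of Fabp4 (chr3:10204088-10208576 in mm10), and Fam25c lies on chromosome 14, the chromosome of Clu (chr14:65968483-65981547). Lpar6 and Cab39l are on chromosome 14 as well, 7.26 and 6.38 Mb from Clu.

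The level at which a cell entered the group was close in the 3 libraries. The last cell inside had Fabp4 and Clu at 0.0380, 0.0420 and 0.0372% of its UMIs, and the first cell outside had 0.0379, 0.0419 and 0.0372%. No gap separated them: 95, 162 and 214 cells lay within 10% of the limit on either side. The members are therefore the upper range of a score that was continuous at the limit. No clustering was run, so whether some of them form a separate group was not tested. When the wild-type limit was applied to the knockout libraries, 12.1% (95% exact binomial interval 11.2 to 13.0) of Lpar6 knockout and 9.55% (8.77 to 10.4) of Cab39l knockout ranked cells reached it. In wild type the share was 9.98%, as set by the choice of the top 10%. All intervals here cover counting error only.

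Fabp4 separated members from the rest more than Clu did. Fabp4 was at 496 CPM in wild-type, 817 CPM in Lpar6 knockout and 508 CPM in Cab39l knockout members, and at 34.5, 64.4 and 36.2 CPM in the rest. Clu was at 313, 242 and 236 CPM in members and at 71.6, 78.6 and 79.8 CPM in the rest. In Lpar6 knockout members Fabp4 was the highest and in wild-type members Clu was the highest of the 3 libraries. The members held 64.5, 58.8 and 64.2% of all Fabp4 UMIs of the ranked cells, but only 35.6, 25.8 and 27.4% of the Clu UMIs. When each UMI was put at random into 1 of 2 parts and cells were ranked on the first and measured on the second, Fabp4 was still 11.4, 10.9 and 11.4 times as high in members as in the rest, and Clu 3.78, 2.61 and 2.36 times.

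The genes did not always occur in the same cells. Over the ranked cells the Spearman correlation of the shares of Fabp4 and Clu was 0.18, 0.09 and 0.17 (12728 cells in all, with both shares divided by the same depth). Of the top 10% by Fabp4 alone, 23.3, 19.3 and 17.8% were also in the top 10% by Clu alone. Among members, 24, 17 and 38 cells had no Fabp4 UMI, and 32, 55 and 39 had no Clu UMI. The median member had Fabp4 at 348, 461 and 362 CPM and Clu at 233, 172 and 192 CPM. The cells were thus a mixture of those carried into the group mainly by Fabp4 and those carried mainly by Clu.

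A few cells had much more Fabp4 than the others. Fabp4 and Clu made up over 0.5% of the UMIs in 8 cells of the Lpar6 knockout, 2 of the wild type and 1 of the Cab39l knockout, and over 1% in 7 Lpar6 knockout cells, up to 3.44%. In the 8 Lpar6 knockout cells Psca was at 17336 CPM against 1418 CPM in the rest, Upk3a at 17889.6 against 5942 CPM, and S100a10 at 310.3 against 7.26 CPM. The endothelial genes Pecam1 and Cdh5 and the adipocyte gene Adipoq had 0 UMIs in these 8 cells, but a level like that of Pecam1 in the rest (0.716 CPM) was not detectable at their depth. The macrophage gene Lyz2 had 8 UMIs (33.5 CPM against 3.28 CPM in the rest). The 114 UMIs of the antigen-presentation gene Cd74 were all in a single cell. Without the cells over 0.5%, Fabp4 was at 476, 597 and 493 CPM in members.

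Barcodes with lymphoid genes were used to gauge the background of both genes. They held Cd79a, Cd79b, Ms4a1, Cd3d, Cd3e, Cd3g and Ptprc at a summed 0.1% of UMIs or more. Ptprc is common to white blood cells, so macrophages, in which Fabp4 is known, can be among them. Their share was not tested. In barcodes with lymphoid genes (530 wild-type, 54 Lpar6 knockout and 149 Cab39l knockout, with median depths of 2591, 2366 and 2921 UMIs), Fabp4 was at 29.5 CPM (exact 95% Poisson interval 21.9 to 38.9), 146 CPM (93.8 to 218) and 29.9 CPM (17.7 to 47.2). After thinning each cell to 1900 UMIs, which left out 142, 11 and 21 shallower lymphoid barcodes, a Fabp4 UMI was found in 44.8, 55.7 and 51.6% of members, in 5.66, 10.9 and 6.42% of the rest and in 4.38, 30.2 and 3.13% of lymphoid barcodes. Unthinned, the shares were 91.7, 96.4 and 92.6% of members, 38.2, 65.9 and 41.9% of the rest and 7.17, 31.5 and 10.7% of lymphoid barcodes. The members were above the lymphoid barcodes in all 3 libraries. The thinned share in the rest was below that of lymphoid barcodes in the Lpar6 knockout library. By level, Fabp4 in the rest (34.5, 64.4 and 36.2 CPM) lay within the lymphoid interval in wild type and the Cab39l knockout. It lay below it in the Lpar6 knockout, so its share of UMIs was not above that of these barcodes in any library. The rest was far deeper, with medians of 23365, 27403 and 30631 UMIs. A fixed amount of free RNA per barcode would make up a larger share of a shallow barcode. How much of Fabp4 in the rest is background was therefore not settled. In the Lpar6 knockout, the level in lymphoid barcodes was 227% of that in the rest for Fabp4 and 20.3% for Upk3a. For Clu, the thinned shares were 39.2, 34.5 and 32.3% of members, 10.1, 13.6 and 12.6% of the rest and 1.03, 9.30 and 5.47% of lymphoid barcodes.

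Psca, Sprr1a and Tspan6 were higher in members. They were named as markers with earlier results of these data known, so their direction is no independent evidence. Psca was at 2159.7, 2849 and 2447 CPM in members, and at 802, 1418 and 1159 CPM in the rest, a mean log2 difference of 1.17 ± 0.23 (SD over the 3 libraries, which differ in genotype). Sprr1a was at 3089, 2589 and 3652 CPM in members and at 1517, 1585 and 2087 CPM in the rest (mean log2 0.85 ± 0.16). Tspan6 was at 153, 145 and 159 CPM in members and at 76.1, 82.1 and 88.5 CPM in the rest (0.88 ± 0.10). Each of these 3 genes was higher in members in each library. In mm10 Psca lies at chr15:74714839-74717069, Sprr1a at chr3:92483952-92485895 and Tspan6 at chrX:133891068-133898429. All log2 values are of CPM + 1 of summed UMIs, and a gene was called higher or lower when it was at least 1.5-fold apart the same way in all 3 libraries.

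The members were richer in umbrella markers than the rest. The 17 umbrella markers together were at 23764, 24904 and 25472 CPM in members and at 17862, 19776 and 19992 CPM in the rest. The 4 uroplakins that the cells had to express made up a median of 1.04, 1.28 and 1.27% of UMIs in members and 0.709, 0.996 and 0.931% in the rest. Of the members, 79.9, 77.9 and 77.4% were over the median uroplakin share of their library. The 17 basal markers summed to 1443, 1033 and 1336 CPM in members and to 2624, 1216 and 2459.6 CPM in the rest. The difference was smallest in the Lpar6 knockout library.

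Markers of the cell types in which Fabp4 is best known were near 0. The 15 endothelial markers summed to 10.6, 8.07 and 9.63 CPM in members and to 8.62, 7.07 and 7.85 CPM in the rest, with 10, 8 and 10 of them at 0 in members and Cdh5 at 0 in members and rest. The 10 adipocyte markers summed to 13.6, 9.70 and 10.9 CPM in members and to 17.0, 11.8 and 11.9 CPM in the rest, with 7 of them at 0 in the members of each library and Adipoq at 0 in members and rest. The 14 macrophage and dendritic markers summed to 17.0, 22.1 and 49.0 CPM in members and to 44.5, 8.60 and 16.5 CPM in the rest. Only 1, 1 and 3 members held 10 or more UMIs of the macrophage and dendritic list. The 8 neutrophil markers summed to 5.85, 0.699 and 0.448 CPM in members and to 51.5, 0.472 and 0.186 CPM in the rest. The 13 B, T and NK markers summed to 7.60, 0.233 and 4.70 CPM in members and to 12.4, 0.917 and 3.66 CPM in the rest. The 13 fibroblast and smooth muscle markers summed to 12.6, 1.63 and 0.504 CPM in members and to 3.68, 2.13 and 1.04 CPM in the rest. In the Cab39l knockout library, prostate and seminal vesicle markers summed to 474 CPM in members and 310.1 CPM in the rest, against at most 13.3 CPM in the other libraries. A single member held 7293 of the 8476 UMIs, and the median was 61.3 CPM in members and 66.0 CPM in the rest. What part these markers have in the results below was not tested.

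Against the rest, 31 of 8391 genes measured (0.369% of genes at 5 CPM or more over the ranked cells of each library, Fabp4 and Clu left out) were called higher in the members and 6 (0.0715%) lower. Since the ranking used the same cells, these shares are given as the background of the gene groups and nothing is read from them. In single libraries 76, 48 and 56 genes were at least 1.5-fold higher and 59, 10 and 31 lower. The median gene differed by a log2 of 0.01, 0.04 and 0.01. The plot of all called genes shows their log2 differences by library.

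**Figure D1:**
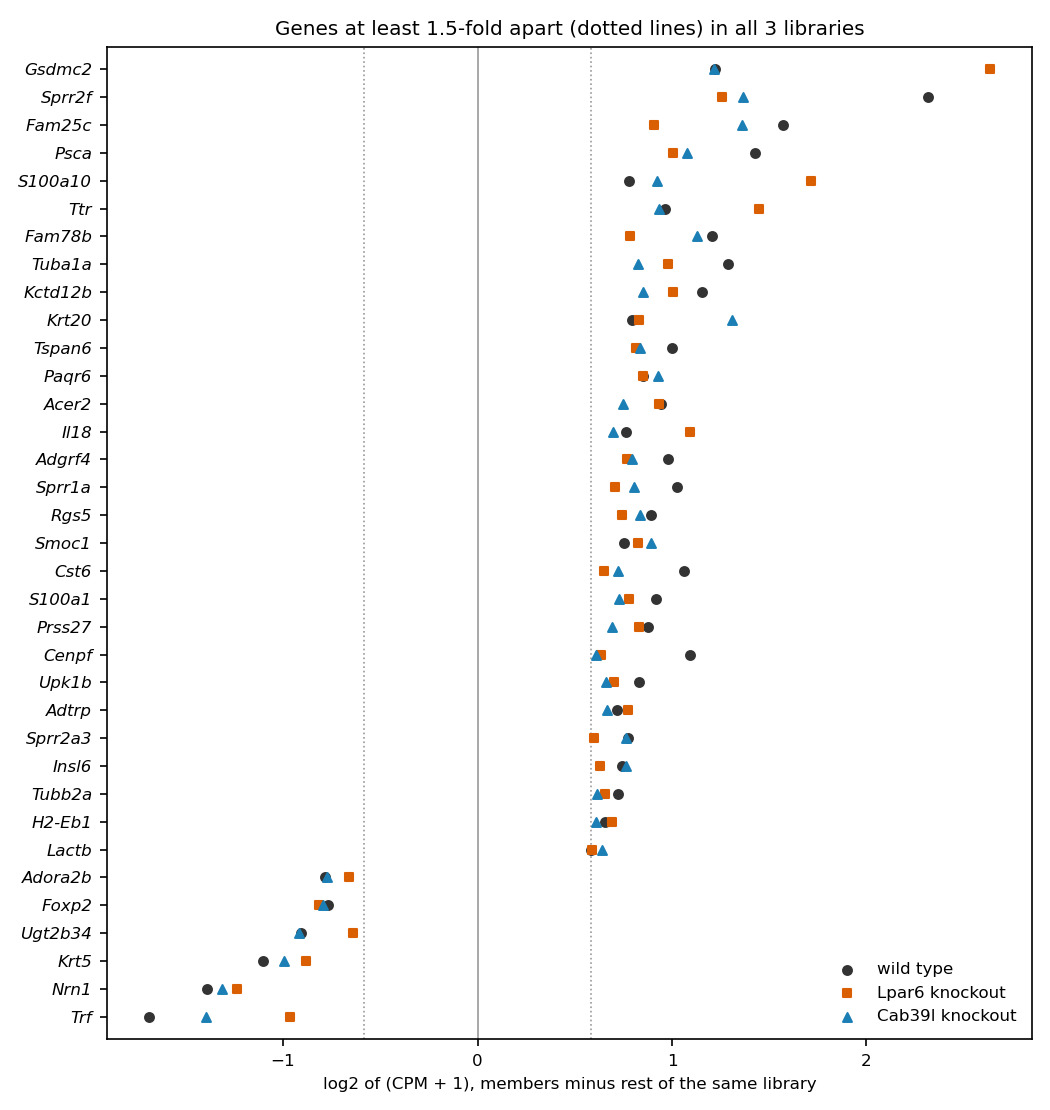
Log2 difference of CPM + 1 between members and the rest of the same library (x axis) for the genes called higher or lower in all 3 libraries, haemoglobin genes left out, with 1 symbol for each library and dotted lines at 1.5-fold. Paqr6, Foxp2 and Nrn1 lie close together in the 3 libraries (SD 0.04, 0.02 and 0.08), while Gsdmc2 is farthest to the right in the Lpar6 knockout library (2.63) and Sprr2f in the wild-type library (2.31).

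Fam25c, Krt20, Upk1b and S100a10 were among the genes called higher. Fam25c was at 901 CPM in wild-type, 1214 CPM in Lpar6 knockout and 867 CPM in Cab39l knockout members, and at 303, 645 and 337 CPM in the rest (mean log2 1.28 ± 0.34). Krt20, the keratin of umbrella cells, was at 86.6, 71.3 and 69.2 CPM in members and at 49.5, 39.6 and 27.4 CPM in the rest (0.98 ± 0.29). Upk1b, a tetraspanin of the uroplakin plaque, was at 1637, 1905 and 2141 CPM against 922, 1171 and 1352 CPM (0.73 ± 0.09), but it was part of the filter on cells. S100a10, the partner of annexin A2, was at 14.3, 26.2 and 20.8 CPM in members and at 7.92, 7.26 and 10.5 CPM in the rest (1.14 ± 0.51). The 10 highest members held 33.6, 32.6 and 19.4% of the S100a10 UMIs of all members, and the median member had 0. Each of these 4 genes was above the rest in every library, as the call requires.

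Sprr2f and Gsdmc2 had the largest mean differences and rested on few cells. Gsdmc2, a member of the gasdermin C family of pore-forming proteins, was at 30.3, 49.1 and 23.3 CPM in members and at 12.4, 7.06 and 9.46 CPM in the rest (mean log2 1.69 ± 0.82). Its 10 highest members held 46.7, 45.9 and 45.0% of the Gsdmc2 UMIs of all members, and the median member had 0. Sprr2f was at 56.0, 28.3 and 31.3 CPM in members and at 10.5, 11.2 and 11.5 CPM in the rest (1.65 ± 0.58). Its 10 highest members held 92.9, 70.1 and 71.6% of its UMIs. After thinning to 10000 UMIs, Sprr2f was found in 5.90, 8.57 and 6.58% of members and in 3.85, 3.07 and 3.24% of the rest. In lymphoid barcodes Sprr2f was at 2.95 CPM (0.959 to 6.89), 12.2 CPM (1.48 to 44.1) and 16.6 CPM (7.96 to 30.5). The lymphoid interval took in the level of the rest in both knockouts, and that of the members in the Lpar6 knockout. Thinned to 1900 UMIs, the shares were 2.78, 3.43 and 2.71% of members, 1.35, 0.975 and 1.07% of the rest and 1.03, 2.33 and 0.781% of lymphoid barcodes. Both genes, and Sprr2a3 below, have close copies in the genome, among which reads can be split, so their levels are uncertain.

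Ttr, Acer2, Il18, Adgrf4, Paqr6, Tuba1a, Fam78b and Kctd12b were called higher too. Ttr, the carrier of thyroxine and of retinol-binding protein, was at 37.6, 81.5 and 24.7 CPM in members and at 18.8, 29.3 and 12.5 CPM in the rest (1.11 ± 0.29). Its 10 highest members held 33.6, 43.4 and 34.4% of its UMIs in members. Without the cells over 0.5% Fabp4 and Clu its mean log2 was 0.89. Acer2, a ceramidase of the Golgi, was at 326, 227 and 182 CPM against 169, 118 and 108 CPM (0.87 ± 0.11). Il18, a cytokine of epithelia, was at 13.0, 17.2 and 12.7 CPM against 7.24, 7.50 and 7.47 CPM (0.85 ± 0.21). Adgrf4, an adhesion receptor coupled to G proteins, differed by 0.85 ± 0.11, and Paqr6, a receptor of the progestin and adipoQ family, by 0.88 ± 0.04. Tuba1a, an alpha tubulin, differed by 1.03 ± 0.23, Fam78b by 1.04 ± 0.22 and Kctd12b by 1.002 ± 0.15. These last 5 genes were in members at levels between 9.24 CPM (Adgrf4 in the Cab39l knockout) and 40.2 CPM (Kctd12b in wild type). The median member had 0 UMIs of each gene of this paragraph but Acer2. For Il18 the 10 highest members held 38.7, 22.2 and 20.7% of the UMIs, and for Paqr6 37.3, 24.1 and 17.0%.

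The 6 genes called lower included the basal keratin Krt5. Krt5 was at 146, 105 and 170.0 CPM in members and at 315, 195 and 340.0 CPM in the rest (mean log2 -0.99 ± 0.11). Trf, which encodes the iron carrier transferrin, was at 33.3, 32.1 and 28.1 CPM in members and at 109.9, 63.7 and 75.6 CPM in the rest (-1.35 ± 0.36). Nrn1, a lipid-anchored protein first known from neurons, was at 15.3, 11.6 and 15.5 CPM against 41.9, 28.8 and 39.9 CPM (-1.31 ± 0.08). Ugt2b34, a glucuronidating enzyme, differed by -0.82 ± 0.16, the forkhead factor Foxp2 by -0.79 ± 0.02 and the adenosine receptor Adora2b by -0.74 ± 0.07. In these 6 genes every library had its members below its rest, as the call requires.

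Both ends of the basal to luminal axis moved, mostly by less than 1.5-fold. Of 15 measured umbrella markers, 13 were higher in members in all 3 libraries, 1 (Gata3) was lower in all 3, and 2 (Krt20 and Upk1b) were called higher. Their median log2 difference was 0.28, against 0.02 over all genes measured, of which 34.0% were higher in all 3 libraries and 22.8% lower. Of 11 measured basal markers, 9 were lower in all 3 libraries and 1 (Krt5) was called lower, with a median of -0.27. Trp63, the transcription factor of basal cells, was at 121, 81.4 and 71.4 CPM in members and at 159.7, 96.0 and 100.1 CPM in the rest. Krt15, a basal keratin, was at 343 and 352 CPM in wild-type and Cab39l knockout members, against 1168 and 1219 CPM in the rest. In the Lpar6 knockout library Krt15 was at 147 CPM in members and 214 CPM in the rest. The 7 measured intermediate markers had a median of 0.01, with Psca and Upk1b called higher. Shh was at 94.8, 75.7 and 87.2 CPM in members against 113, 86.7 and 97.1 CPM in the rest. All 8 listed intermediate markers summed to 4285, 5114 and 4955 CPM in members and to 2228, 2912 and 2924 CPM in the rest. Psca and Upk1b made up most of these sums. The lists were chosen with earlier results of these data known, and umbrella markers include genes of the filter, so their direction is no independent evidence.

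The transcription factors of luminal cells lay on both sides of the rest. Of 21 measured, 6 were higher and 8 lower in all 3 libraries, 0 were called, and the median was 0.00. Pparg, the nuclear receptor for which Fabp4 is a known target gene, was at 118, 104 and 91.8 CPM in members and at 109.6, 85.6 and 82.3 CPM in the rest. Klf5 was at 277, 184 and 196 CPM in members against 338, 202 and 229.99 CPM in the rest. Gata3 was at 521, 348 and 358 CPM in members against 538, 377 and 365 CPM in the rest.

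Other genes of fatty acid handling were close to the rest. Of 40 measured PPAR targets and fatty acid genes other than Fabp4, 0 were called, 16 were higher and 6 lower in all 3 libraries, and the median was 0.05. Fabp5, the other carrier of this family that was abundant, was at 941, 1119 and 896 CPM in members and at 636, 908 and 647 CPM in the rest. Acadl, which oxidises long-chain acyl-CoA in mitochondria, was at 371, 410.5 and 416 CPM against 293, 318 and 309 CPM. Plin2, which coats lipid droplets, was at 261, 244 and 254 CPM against 266, 261 and 257 CPM. Pdk4, a kinase that restrains glucose oxidation and a PPAR target, was at 10.1, 3.803 and 5.88 CPM against 13.5, 6.35 and 8.35 CPM.

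Genes of cholesterol synthesis leaned upward. Of 23 measured genes, 20 (87.0%) were higher in all 3 libraries and 0 lower in all 3, with a median of 0.28 and 0 genes called. The background for this and the other lists was 34.0% of all genes measured higher and 22.8% lower in all 3 libraries. Tm7sf2, a sterol reductase, was at 17.4, 17.2 and 21.8 CPM in members against 11.7, 12.4 and 13.96 CPM in the rest. Idi1, an isomerase of the isoprenoid chain, was at 62.1, 59.4 and 59.3 CPM against 46.8, 52.6 and 41.7 CPM. Msmo1, an oxidase of methylsterols, was at 116, 119 and 121 CPM against 91.5, 95.7 and 96.4 CPM. Nuclear genes of oxidative phosphorylation had a smaller shift, with 64 of 71 higher in all 3 libraries, 2 lower in all 3, 0 called and a median of 0.10.

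Of the 13 measured cornified envelope and small proline-rich genes, 9 were higher in all 3 libraries and 3 (Sprr1a, Sprr2a3 and Sprr2f) were called. Sprr2a3 was at 926, 1259 and 1625 CPM in members against 542, 832 and 955 CPM in the rest. Ivl, the precursor of the envelope, was at 790.4, 398 and 502 CPM against 678, 376 and 425 CPM. Among 19 tetraspanins, 13 were higher in all 3 libraries, and Tspan6 and Upk1b were called. Cd63 was at 389.8, 469 and 442 CPM in members against 305, 320.5 and 339.8 CPM in the rest, and Cd82 at 45.2, 33.3 and 39.2 CPM against 48.2, 35.6 and 40.1 CPM. In the Ly6 family, 5 of 10 genes were higher and 4 lower in all 3 libraries and only Psca was called. Ly6d, another member of the family, was at 4747, 7138 and 5926 CPM against 4706, 6709 and 5830.5 CPM, and Ly6e was at 47.1, 48.5 and 51.8 CPM against 74.7, 57.8 and 77.1 CPM.

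Genes related in function to clusterin were few. Of 5 measured extracellular chaperone and complement control genes other than Clu, 5 were higher in all 3 libraries, 0 were called and the median was 0.28. Cd55, which protects cells from complement, was at 64.1, 46.3 and 46.7 CPM in members against 47.4, 35.2 and 34.1 CPM in the rest. Hspa5, the chaperone of the endoplasmic reticulum, was at 214, 169 and 163 CPM against 166, 137 and 138 CPM. Of 19 heat shock genes, 12 were higher and 2 lower in all 3 libraries and 0 were called, with a median of 0.09. Immediate early genes had a median of 0.21 in the wild-type library and of -0.10 and -0.08 in the Lpar6 and Cab39l knockout libraries. Fos was at 268, 109 and 94.7 CPM in members against 209, 124 and 106 CPM in the rest. Egr1 was at 119, 21.1 and 23.6 CPM in members against 87.4, 27.3 and 21.97 CPM in the rest.

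**Figure D2:**
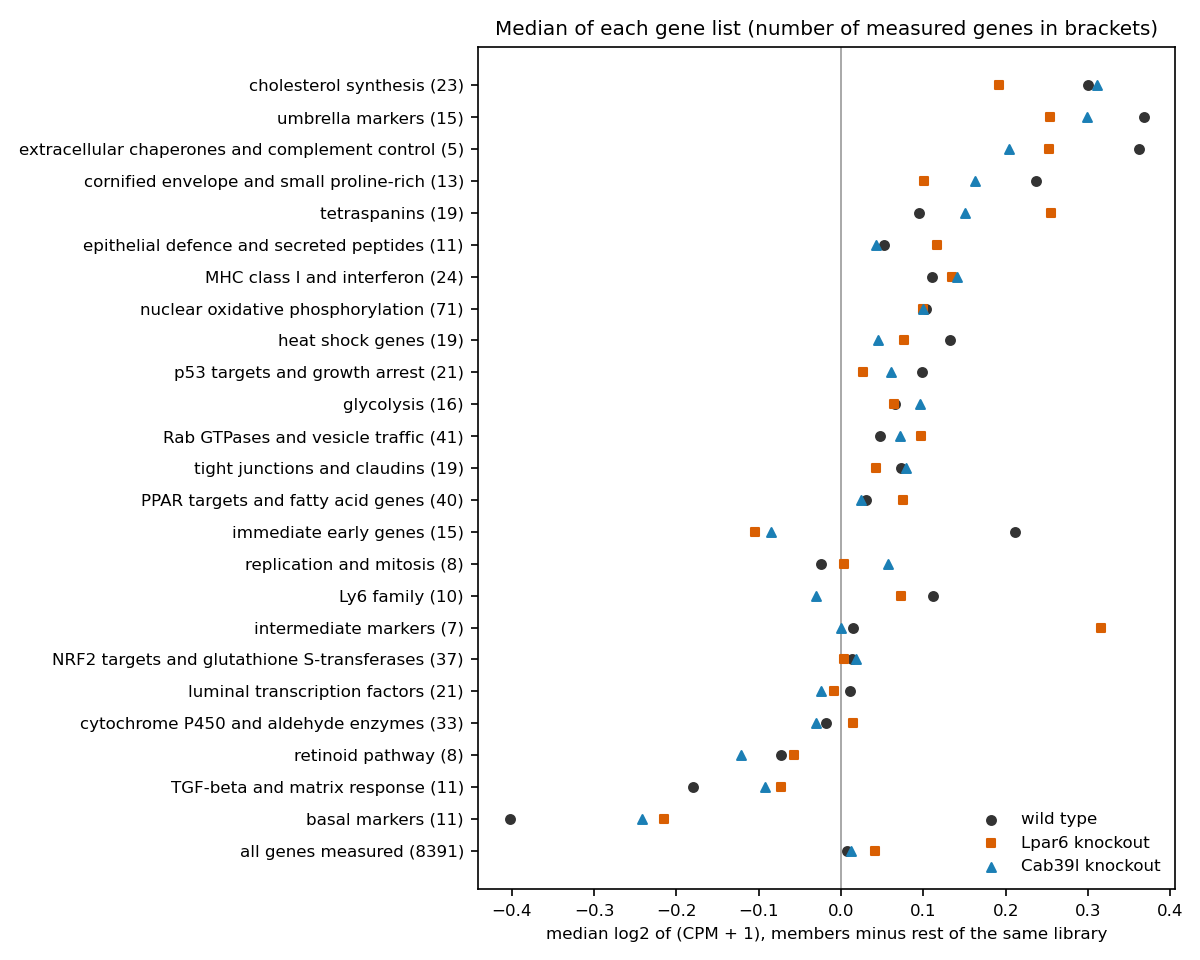
Median log2 difference of CPM + 1 between members and the rest (x axis) for each list with at least 5 measured genes, with 1 symbol for each library. Cholesterol synthesis, umbrella markers and extracellular chaperones lie to the right and basal markers to the left in all 3 libraries, and immediate early genes lie right of 0 in the wild-type library only.

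Haemoglobin RNA was higher in members and came from few cells. Hbb-bs was at 274, 227 and 69.4 CPM in members and at 171, 65.9 and 27.4 CPM in the rest, and Hbb-bt was called with it. The 3 members with the most held 84.5, 96.8 and 94.7% of the Hbb-bs UMIs of all members, and the median member had Hbb-bs at 37.1 CPM in wild type and at 0 in both knockouts.

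Psca, Tspan6 and Krt5 changed along the whole ranking and not at the limit only. The ranked cells of each library were cut into 10 equal parts. Psca fell from 2159.3 CPM in the highest part to 1352 CPM in the second and 361 CPM in the last in wild type, from 2849 to 1828 and 978 CPM in the Lpar6 knockout, and from 2444 to 1715 and 623 CPM in the Cab39l knockout. Tspan6 fell from 154 to 109 and 44.0 CPM in wild type, from 145 to 108 and 62.1 CPM in the Lpar6 knockout, and from 159 to 121 and 57.5 CPM in the Cab39l knockout. Krt5 had the opposite course, with 146, 203 and 446 CPM in wild type, 105, 141 and 267 CPM in the Lpar6 knockout and 170.3, 227 and 495 CPM in the Cab39l knockout.

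In Krt20 the step at the limit differed by library. From the highest to the second part Krt20 went from 86.4 to 69.2 CPM in wild type, from 71.3 to 51.3 CPM in the Lpar6 knockout and from 69.1 to 36.4 CPM in the Cab39l knockout. Kctd12b was at 40.1, 21.9 and 26.2 CPM in the highest part and at 18.7, 16.6 and 22.4 CPM in the second. In the last part Kctd12b was at 17.8, 8.40 and 11.1 CPM. In wild type Kctd12b and S100a10 (14.2, 9.61 and 9.41 CPM in the highest, second and last part) changed little below the second part. Gsdmc2 was at 30.2, 16.2 and 21.5 CPM in the same parts of wild type. It was lower in between, with 7.94 CPM in the third and 8.44 CPM in the fifth part. In both knockouts these genes were lower in the last part than in the second. Ttr was at 37.5, 81.5 and 24.7 CPM in the highest part and at 25.9, 38.3 and 15.7 CPM in the second. Pparg was at 118, 104 and 92.0 CPM in the highest part and at 112, 84.3 and 83.8 CPM in the last. In the rest, 737, 420 and 991 cells had no UMI of Fabp4 or Clu, so that the order within the lowest parts is partly a tie.

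**Figure D3:**
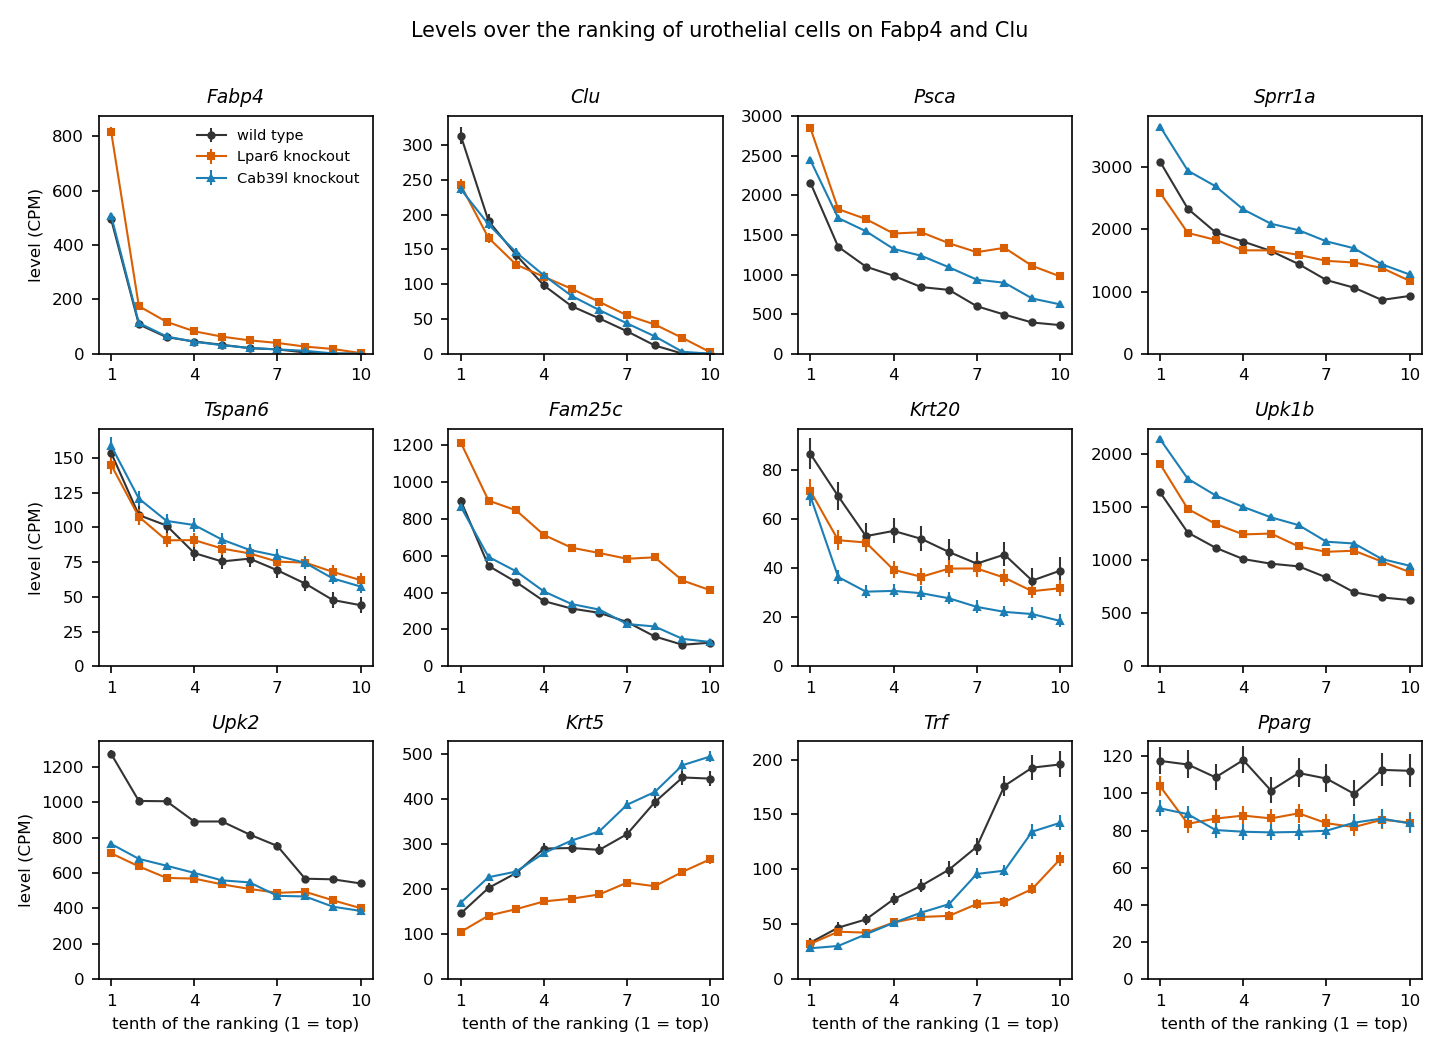
Level in CPM (y axis, from 0) of 12 genes in 10 equal parts of the ranking on Fabp4 and Clu (x axis, 1 is the highest), with 1 line for each library and bars for exact 95% Poisson intervals of the summed UMIs. Psca, Sprr1a, Tspan6, Fam25c and the uroplakin genes Upk1b and Upk2 decline from the highest to the last part, Krt5 and Trf rise, and Pparg stays between 79.0 and 118 CPM.

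Members were split by the gene that carried them into the group. Members with more Fabp4 than Clu UMIs (Fabp4-led) numbered 165 of 288 in wild type, 345 of 467 in the Lpar6 knockout and 335 of 517 in the Cab39l knockout, and the others are called Clu-led. Median depths were 25550, 28259 and 33964 UMIs in Fabp4-led and 28361, 19737 and 34854 UMIs in Clu-led cells. Of the 29 genes called higher (haemoglobin genes left out), 29 were above the rest in Fabp4-led cells of all 3 libraries and 28 in Clu-led cells, with 21 and 22 at least 1.5-fold above in all 3. The exception was Sprr2f. It was at 98.8, 25.1 and 41.8 CPM in Fabp4-led cells and at 6.56, 39.6 and 11.1 CPM in Clu-led cells, against 10.5, 11.2 and 11.5 CPM in the rest.

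Psca was at 1884, 2871 and 2422 CPM in Fabp4-led and at 2478, 2772 and 2494 CPM in Clu-led cells. Krt20 was the higher in Fabp4-led cells, with 93.1, 75.1 and 79.3 CPM against 79.0, 57.3 and 49.9 CPM. Trf was the lower in Clu-led cells, with 17.7, 23.4 and 15.2 CPM against 46.9, 34.5 and 34.8 CPM. Gsdmc2 was higher in Fabp4-led cells in wild type (40.1 against 18.9 CPM) and higher in Clu-led cells in the Lpar6 and Cab39l knockouts (77.5 against 41.3 CPM and 30.1 against 19.8 CPM). These subsets were cut from the same counts that chose the members, and the 29 genes were called on both together, so that lying above the rest in each was largely set by the choice.

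**Figure D4:**
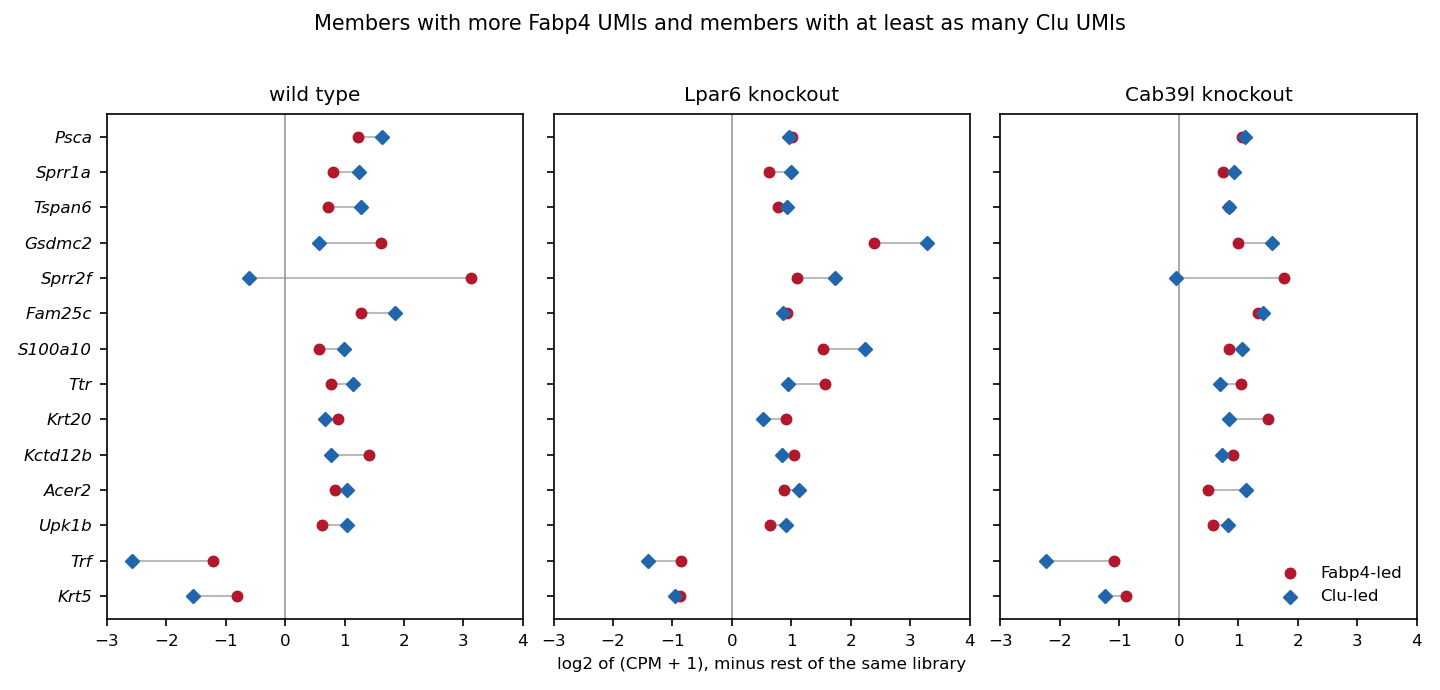
Log2 difference of CPM + 1 from the rest of the same library (x axis) for 14 genes in Fabp4-led members (circles) and Clu-led members (diamonds), with 1 panel for each library. Psca, Sprr1a, Tspan6 and Krt20 are right of 0 and Trf and Krt5 left of 0 for both kinds of cell in each panel, and Sprr2f in Clu-led cells is left of 0 in wild type (-0.60) and the Cab39l knockout (-0.05).

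Psca and Fam25c had the per-cell pattern most like that of Clu and of Fabp4. Over the 2887, 4670 and 5171 ranked cells, the highest mean Spearman correlations with Clu were those of Psca (0.50), Fam25c (0.45), Upk1b (0.44), S100a6 (0.43) and Upk2 (0.40). With Fabp4 they were Psca (0.28), Fam25c (0.27), S100a6 (0.27), Upk1b (0.26) and Fabp5 (0.23). Likeness was weaker with Fabp4 than with Clu for each of the 4 genes on both lists. These are descriptions over cells that share libraries and differ in depth.

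Of the 5 rankings on other genes that were compared, that on Krt20 and Upk2 shared the most members, and most members were outside it. When the same cells were ranked on Krt20 and Upk2, 27.4% (22.4 to 33.0) of wild-type, 27.6% (23.6 to 31.9) of Lpar6 knockout and 29.6% (25.7 to 33.7) of Cab39l knockout members were also in the top 10%. For the ranking on Rgs5, a regulator of G protein signalling, and Ttr the shares were 21.2% (16.6 to 26.4), 22.1% (18.4 to 26.1) and 22.8% (19.3 to 26.7), with intervals that overlapped those of Krt20 and Upk2 in each library. For Areg, a ligand of the EGF receptor, and Ivl they were 15.97, 13.1 and 18.4%. For Defb1, Tmem176a and Tmem176b they were 7.64, 9.21 and 5.42%, and for the basal genes Krt5 and Trp63 2.78, 5.14 and 2.51%. The median member had Krt5 at 101, 72.0 and 138 CPM against 277, 169 and 304 CPM in the median cell of the rest, Upk2 at 1094, 621 and 692 CPM against 682, 490.1 and 497 CPM, and Rgs5 at 213, 138 and 139 CPM against 79.1, 73.7 and 63.0 CPM. The median member had Ivl at 709.7, 347 and 433 CPM against 614, 344 and 374 CPM, and Defb1 at 20.9, 0 and 24.9 CPM against 33.5, 0 and 56.7 CPM.

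**Figure D5:**
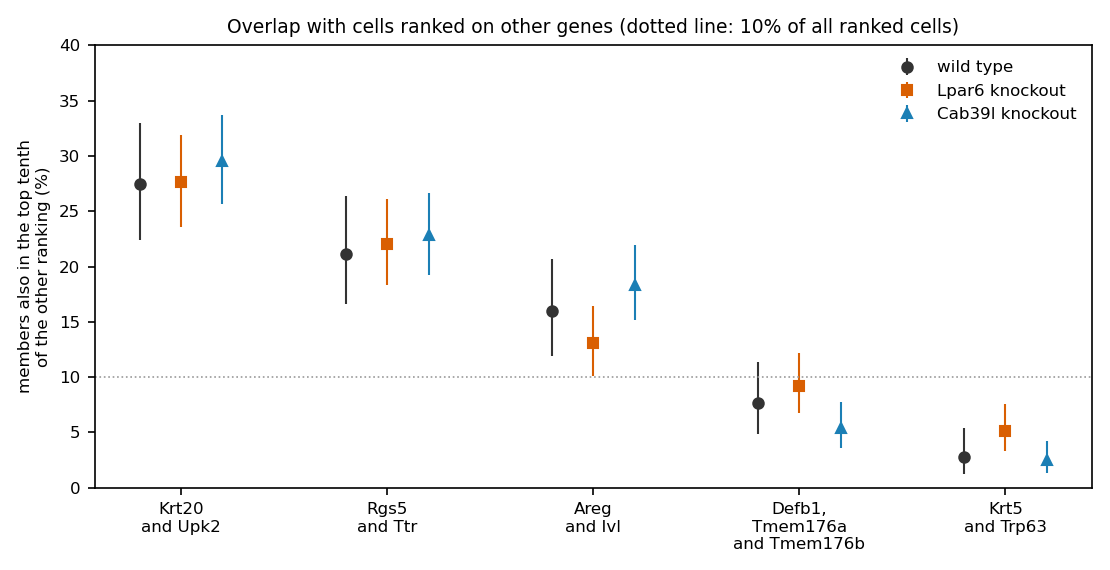
Share of the members that was also in the top 10% of the same cells ranked on other genes (y axis, in %), by ranking and library, with exact 95% binomial intervals and a dotted line at the 10% that each ranking takes of all ranked cells. The ranking on Krt20 and Upk2 is highest, at 27.4 to 29.6%, and the ranking on Krt5 and Trp63 lowest, at 2.51 to 5.14%.

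The called genes were fewer when only luminal cells were compared. When members and rest were both taken from cells over the median uroplakin share, 19 genes were called higher and 5 lower, 20 of them among the 37 called in the whole. Psca then differed by a mean log2 of 0.93, Gsdmc2 by 1.95, Fam25c by 1.01, Krt20 by 0.81, Tspan6 by 0.72 and Sprr1a by 0.72. Krt5 differed by -0.88, Trf by -1.27 and Nrn1 by -0.98. Each of these 9 genes kept its direction in the 3 libraries.

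The knockout members were then set beside wild-type members, as a description of 3 libraries. Between Lpar6 knockout and wild-type members, 149 of 8485 genes (1.76%) were at least 1.5-fold higher and 2285 (26.9%) lower. Between Cab39l knockout and wild-type members, 121 of 8515 genes (1.42%) were higher and 2621 (30.8%) lower. The median gene was shifted by a log2 of -0.31 (Lpar6 knockout) and -0.32 (Cab39l knockout) in members, and by -0.35 and -0.32 in the rest of the cells. Centred on the median gene, 892 genes were higher and 520 lower in the Lpar6 knockout, and 897 higher and 781 lower in the Cab39l knockout. The comparisons share the wild-type library, and whether the shift belongs to the genotype or to the library cannot be told apart.

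Most genes called higher in the members were within 1.5-fold of wild type in the knockout members, as were most of all genes measured. Of the 29 (haemoglobin genes left out), 5 were higher in Lpar6 knockout members than in wild-type members (Gsdmc2, S100a10, Ttr, Tuba1a and H2-Eb1) and 6 lower (Sprr2f, Kctd12b, Adgrf4, Rgs5, Smoc1 and Adtrp), with a median log2 of -0.01. In Cab39l knockout members 1 was higher (Sprr2a3) and 7 were lower (Sprr2f, Kctd12b, Acer2, Adgrf4, Rgs5, Smoc1 and Cenpf), with a median of -0.09. In the rest the medians of the same genes were 0.09 and 0.07. Over all genes in members, 1.76% were higher and 26.9% lower in the Lpar6 knockout, and 1.42% higher and 30.8% lower in the Cab39l knockout. The median of all genes in members was -0.31 and -0.32, as given above. Psca was 0.40 (log2) higher in Lpar6 knockout than in wild-type members, and 0.82 higher in the rest. Fabp4 itself was 0.72 higher in Lpar6 knockout than in wild-type members and 0.88 higher in the rest. In the rest its CPM was not above that of the much shallower lymphoid barcodes, which does not settle its background. Without the cells over 0.5% Fabp4 and Clu, Fabp4 was at 597 CPM in Lpar6 knockout and 476 CPM in wild-type members, so 8 cells carried much of the difference. Clu differed by -0.37 in members and 0.13 in the rest.

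The genes whose knockout difference in the members was farthest from that in the rest are named here. In the Lpar6 knockout, Krt4, a keratin of suprabasal cells, was at 41.9 CPM in members and 23.4 CPM in the rest, while in wild type it was at 39.7 CPM in members and 65.6 CPM in the rest. Krt4 had 44.7 CPM in members and 83.1 CPM in the rest of the Cab39l knockout. Krt15 was lower in the Lpar6 knockout than in wild type by a log2 of -1.22 in members and -2.44 in the rest, and Tmem176b differed by 0.42 and -0.58. Reg3g, a secreted lectin that acts against bacteria, was at 16.7 CPM in Lpar6 knockout and 2.69 CPM in wild-type members, but 3 cells held 64.7% of its UMIs in the Lpar6 knockout members. At the other end were Sprr2f, Acd, Egr1, Ppm1d and Fam25c. Egr1, an immediate early transcription factor, was at 21.1 CPM in Lpar6 knockout and 119 CPM in wild-type members, and at 27.3 and 87.4 CPM in the rest.

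In the Cab39l knockout, the largest of these differences came from single cells. Lyz2 was at 30.7 CPM in Cab39l knockout and 4.68 CPM in wild-type members, and Apoe at 35.6 and 2.34 CPM. A single member held 522 of the 548 Lyz2 UMIs, and a single member 609 of the 636 Apoe UMIs. Spink1, a secreted trypsin inhibitor, was at 179 CPM in Cab39l knockout and 3.28 CPM in wild-type members and at 142 and 5.64 CPM in the rest, and a single member held 2560 of its 3202 UMIs. H2-Q6 and Slc4a7 differed from wild type by a log2 of 0.47 and -0.03 in members and -0.33 and -0.74 in the rest. At the other end were Sprr2f, Dusp1, Ticam1, Akr1b7 and Gsdme. Dusp1, an immediate early phosphatase, was at 11.4 CPM in Cab39l knockout and 30.3 CPM in wild-type members, and at 14.8 and 22.5 CPM in the rest. Akr1b7, an aldo-keto reductase, was at 15.8 and 16.3 CPM in members and at 67.5 and 42.3 CPM in the rest.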

How the data were processed

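The authors deposited unnormalized UMI counts, 1 matrix of genes by barcodes for each of 3 pooled libraries of 10x 3' tags. Cell Ranger 3.0.2 and mm10 are named per the submitters' processing notes, and the annotation release is given by no source used here. Gene positions were taken from GENCODE vM21, in which 30934 of 31053 gene identifiers (99.6%) were found. The matrices held 8085, 8293 and 9406 barcodes with 101977647, 139250807 and 175075246 UMIs.

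Cells were filtered and ranked as stated in the results, and UMIs were summed over members and over the rest of each library and scaled to 1000000 (CPM). Folds are differences of log2(CPM + 1), for genes with at least 5 CPM over the ranked cells of each library compared. Members were selected on these counts and cells are not replicates, so no test was made. Levels carry exact 95% Poisson and shares exact 95% binomial intervals. Scrublet, run through scanpy 1.11.5, called 22 of 16821 cells (0.131%) doublets by its default limit. Since a share below 0.5% means that the caller did not work, doublets were kept and the 6% of highest score were left out as an alternative.

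The members and the 34 gene lists were chosen with earlier results of these data known. Genes were named by a rule: Psca, Sprr1a and Tspan6, the 15 highest and 15 lowest called genes (without ribosomal, haemoglobin and mitochondrially encoded genes, Xist, Tsix, Y-linked genes and unnamed gene models), 2 to 4 genes of each described list, the 5 highest and 5 lowest of each knockout difference relative to the rest, the targeted genes and the 5 genes most like Fabp4 or Clu. Only 6 genes were called lower. Genes named outside this rule (Hbb-bs, Hbb-bt, H2-Ab1, H2-Aa, Cenpf and the further called genes in the knockout comparison) were chosen after their values were seen. Of the 36 repeated gene symbols, the first entry was used.

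Alternatives covered the share of cells taken, depth, mitochondrial and uroplakin limits, doublets, the ranking gene, a random split of UMIs, equal weight of cells, depth weighting, scaling, pseudocount, low-count filter, fold and each library left out. The fold and call steps were tested on simulated pooled Poisson counts with known folds. The filter, the ranking on Fabp4 and Clu and the spread between cells were not simulated. Python 3.11.15, numpy 2.4.6, scipy 1.17.1, pandas 2.3.3 and matplotlib 3.10.9 were used.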

Additional observations from a re-analysis of the deposited data

Results flagged for a closer look

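Krt4 moved in opposite directions in the libraries. Its log2 difference between members and the rest was -0.71 for wild-type cells, 0.82 for Lpar6 knockout cells and -0.88 for Cab39l knockout cells, a span of 1.70 from the lowest to the highest library. Members of the 3 libraries were at 39.7 CPM (35.6 to 44.1), 41.9 CPM (38.5 to 45.6) and 44.7 CPM (41.7 to 47.9), and the rest at 65.6, 23.4 and 83.1 CPM. The members' level averaged over unlike cells: Krt4 was at 28.6, 28.7 and 23.1 CPM in Fabp4-led members and at 52.5, 90.1 and 86.3 CPM in Clu-led members, which in the Cab39l knockout were not below the rest (log2 0.05). The 10 highest members held 46.9, 49.6 and 35.2% of the Krt4 UMIs. With 1 library for each genotype, the difference was not tested.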

How the results depend on the processing

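The count of 37 genes called in all 3 libraries fell to 19 with the top 20% of cells, 22 with uroplakins at 1% or more, 24 among cells over the median uroplakin share, 20 when ranked on Fabp4 alone, 20 on Clu alone, 22 with a pseudocount of 5 CPM, 20 at 20 CPM or more and 4 at a fold of 2, and rose to 72 at 1 CPM or more. It lay between 28 and 49 under the top 5%, a higher depth limit, 10% mitochondrial UMIs, doublet removal, the random split of UMIs, equal weight of cells, depth weighting and centring on the median gene. With each library left out in turn it ranged from 40 to 78, with the highest value without the Lpar6 knockout. Without the cells over 0.5% Fabp4 and Clu, an alternative chosen after seeing the data, it was 33. Between knockout and wild-type members, 2434 genes (Lpar6) and 2742 genes (Cab39l) were apart, against 1412 and 1678 after centring on the median gene and 1038 and 1163 at 20 CPM or more, and against 1562 (Lpar6) with a pseudocount of 5 CPM. Fabp4 differed by a log2 of 3.74, by 3.46 with the random split and by 1.68 when ranked on Clu alone, and Clu by 1.76, and by 0.92 when ranked on Fabp4 alone. None of the 35 called genes other than haemoglobin genes, which were not run, changed the direction of its mean log2, while the medians of 9 of 26 lists changed sign in at least 1 setting, all with a median log2 between -0.02 and 0.08. Of 630 values of named genes, 486 stayed within 1 SD of the libraries and 144 moved further, and Sprr2f went down to 0.24 when ranked on Clu alone. The 486 include all 35 genes in each setting that left out 1 library. That outcome was fixed in advance, since leaving out 1 of 3 libraries cannot move a mean by 1 SD. Where a setting does not explain a change by its construction, the cause was not tested. No paired analysis was possible because no result comes from a test: members are set against the rest of their own library, and each knockout contrast has 1 library a side. Counting error limits genes near 5 CPM.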

Other observations

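Defence and antigen genes showed a mixed picture in the members. Of 24 measured MHC class I and interferon genes, 12 were higher and 3 lower in all 3 libraries, 0 were called and the median log2 was 0.13. Psmb8, a subunit of the immunoproteasome, was at 51.6, 87.6 and 71.3 CPM in members (wild type first, then the Lpar6 and Cab39l knockouts) and at 39.99, 72.4 and 56.2 CPM in the rest. Ifitm3, which hinders entry of viruses, was at 38.0, 64.1 and 50.8 CPM in members and at 57.9, 89.0 and 75.2 CPM in the rest. H2-Eb1, a class II gene, was called higher at 45.0, 80.0 and 48.1 CPM against 28.2, 49.2 and 31.3 CPM, while the class II genes H2-Ab1 and H2-Aa had at most 6.05 CPM in members.

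Genes of matrix response and retinoid handling leaned the other way. Of 11 measured TGF-beta and matrix response genes, 6 were lower and 1 higher in all 3 libraries, with a median of -0.12. Tgfb1 was at 54.8, 43.2 and 57.5 CPM in members and at 72.0, 53.3 and 78.8 CPM in the rest. Of 8 retinoid pathway genes, 5 were lower and 2 higher in all 3 libraries, with a median of -0.11. Dhrs3, a reductase of retinaldehyde, was at 246, 207 and 267 CPM in members and at 262, 223 and 302 CPM in the rest. Cenpf, a mitotic kinetochore gene, was called higher at 16.8, 12.5 and 10.1 CPM against 7.37, 7.68 and 6.29 CPM, while the replication and mitosis list of 8 genes had a median of 0.04.

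Secreted and defence peptides were uneven. Of 11 measured epithelial defence and secreted peptide genes, 7 were higher and 3 lower in all 3 libraries and S100a10 was called, with a median of 0.16. S100a6, a calcium-binding protein, was at 21331, 25094 and 26530.4 CPM in members and at 16524, 21243 and 21266 CPM in the rest. Defb1, a beta-defensin, was at 42.9, 28.4 and 45.2 CPM in members and at 55.8, 35.3 and 84.8 CPM in the rest. Lists with no clear lean were those of NRF2 targets and glutathione S-transferases (12 of 37 higher and 10 lower in all 3 libraries) and of cytochrome P450 and aldehyde enzymes (12 of 33 in each direction, with Ugt2b34 called lower). Of 19 tight junction genes, 10 were higher and 3 lower in all 3 libraries, and of 41 Rab and vesicle genes 18 and 5. Of 16 glycolysis genes, 10 were higher and 3 lower, and of 21 p53 targets 9 and 7, with 0 called in each of these lists. Over all genes measured, 34.0% were higher and 22.8% lower in all 3 libraries.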
